A study of Mus musculus with 24 samples.

Results

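The replication-dependent histone genes were taken by symbol: every gene of the mm9 annotation (GENCODE vM1) whose name begins with Hist1, Hist2, Hist3 or Hist4. This gave 70 genes of 37310. The Hist1 cluster on chromosome 13 held 56 of them, the Hist2 cluster on chromosome 3 held 10, the Hist3 cluster on chromosome 11 held 3, and Hist4h4 stood alone on chromosome 6. By product they were 6 genes for the linker histone H1 and 20, 19, 12 and 13 genes for the core histones H2A, H2B, H3 and H4. Of the 70, 67 were annotated as protein-coding and 3 (Hist1h2aj, Hist2h3c2 and Hist3h2bb-ps) as pseudogenes. A peak was assigned to a gene when it overlapped the gene body or the 1 kb on either side by at least 1 bp. In all, 68 of the 70 genes carried a peak in at least 1 of 16 lists. The 2 without any were Hist1h2aa and Hist1h2ba, a neighbouring pair that encodes the testis forms of H2A and H2B.

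Replication-dependent histone genes are transcribed mainly in S phase, when new chromatin needs histones in bulk. They are short, mostly without introns, arranged in dense clusters of near-identical copies, and their messages end in a conserved stem-loop, bound by SLBP, instead of a poly(A) tail. CTCF is a zinc-finger protein that binds a defined DNA motif, and Rad21 is a subunit of the cohesin ring, which extrudes chromatin loops and accumulates where it meets CTCF.

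Chromatin bound by Rad21 or CTCF was sequenced after immunoprecipitation (ChIP-seq) in mouse pro-B cell lines transformed by v-Abl. All the lines were RAG2 deficient, carried the Emu-Bcl2 transgene and received 3 µM STI-571, an Abl kinase inhibitor that halts the cycle of such cells, for 4 days. In the degron lines Rad21 (Rad21degron) or CTCF (CTCFdegron) carries a tag through which the auxin IAA triggers its breakdown. IAA was given at 500 µM, for 6 h before the inhibitor and again together with it. The 6 groups were Rad21 ChIP of the parental line without IAA (3 libraries), Rad21 ChIP of the CTCFdegron line with IAA (3), Rad21 ChIP of the Rad21degron line without IAA (2) and with IAA (2), CTCF ChIP of the parental line without IAA (3) and CTCF ChIP of the CTCFdegron line with IAA (3). The CTCFdegron line was compared with the parental line, so line and IAA changed together and cannot be told apart. Nothing in the labels says that replicates came from separate cultures or clones, so the spread between them may be technical. Peak lists hold neither RNA levels nor read counts. The pro-B identity, histone transcription and the depth of each library could therefore not be checked.

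Peak lists differed in length within and between groups. The parental Rad21 lists held 67810, 43925 and 29724 mouse peaks, and those of the CTCFdegron line 35224, 25949 and 15690. The CTCF lists held 46657 to 52357 in the parental line and 15510, 15754 and 8215 in the CTCFdegron line. The Rad21degron lists held 32913 and 22085 without IAA and 3588 and 1384 with it.

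Sequences at these genes fell into a few kinds, shown here because counts below refer to them. The first kind is the shared promoter between an H2A gene and an H2B gene transcribed away from each other, of which the clusters held 13, 167 to 305 bp long. All 13 held CCAAT on either strand, 5 held TATAAA and 6 held the octamer ATTTGCAT, in capitals below where they occur. The promoter of Hist1h2bq and Hist1h2ao (chr13:21902069-21902235, minus strand) and that of Hist1h2ap and Hist1h2br (chr13:21925445-21925611, plus strand) were identical over 167 bases in opposite orientation. The other 2 shown lie at chr13:23663090-23663264 and chr3:96024804-96025043, both on the plus strand of mm9.
Hist1h2ap/Hist1h2br and Hist1h2bq/Hist1h2ao: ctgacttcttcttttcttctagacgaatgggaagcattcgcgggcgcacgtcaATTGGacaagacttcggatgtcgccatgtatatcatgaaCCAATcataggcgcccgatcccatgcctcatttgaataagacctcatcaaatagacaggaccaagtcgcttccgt
Hist1h2ae/Hist1h2bg: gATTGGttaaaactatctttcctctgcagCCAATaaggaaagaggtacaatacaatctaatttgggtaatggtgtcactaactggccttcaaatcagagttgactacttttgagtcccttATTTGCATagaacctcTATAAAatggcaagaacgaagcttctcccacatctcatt
Hist2h2ac/Hist2h2be: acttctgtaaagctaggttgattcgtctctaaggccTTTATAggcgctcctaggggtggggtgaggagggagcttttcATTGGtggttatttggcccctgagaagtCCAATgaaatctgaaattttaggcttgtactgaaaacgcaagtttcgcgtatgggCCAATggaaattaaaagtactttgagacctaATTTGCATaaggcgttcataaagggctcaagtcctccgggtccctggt

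The second kind is the core of the CTCF motif, searched as CCNNNAGNNGGC on both strands and capitalised within 52-base stretches of mm9. The 5 stretches below lay outside exons at sites where Rad21 and CTCF peaks were both called in every parental library. They were in the long intron of Hist1h2be (chr13:23690024-23690075, minus), upstream of Hist1h4j (chr13:21826130-21826181, minus), between Hist1h1t and Hist1h4c (chr13:23789412-23789463, minus), past the end of Hist1h2bl (chr13:21806761-21806812, plus) and 168 bp from the start of Hist2h4 (chr3:96067377-96067428, minus).
Hist1h2be intron: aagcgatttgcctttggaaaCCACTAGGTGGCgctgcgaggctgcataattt
Hist1h4j: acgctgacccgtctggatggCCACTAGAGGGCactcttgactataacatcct
Hist1h1t/Hist1h4c: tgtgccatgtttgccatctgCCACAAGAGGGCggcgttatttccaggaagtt
Hist1h2bl: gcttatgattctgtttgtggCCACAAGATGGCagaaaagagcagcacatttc
Hist2h4: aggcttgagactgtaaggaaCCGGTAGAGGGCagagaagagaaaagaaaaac

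The same letters also occurred inside H2A coding sequence. All 19 H2A coding sequences had a match in their first 375 bases, and 16 had at least 2, with the first bases of the pair 60 bases apart. A match was also found in 1 of 6 H1 coding sequences, and in none of 17 for H2B and 11 for H3, against 9.49% of all coding sequences with 1 or more and 0.727% with at least 2. Stretches that hold the pair are given for Hist1h2ai (chr13:21808459-21808570, plus), which carried peaks, and for Hist1h2aa (chr13:24026499-24026610, plus), which had the matches and no peak in any list. A match is a match of letters and was not tested as a binding site.
Hist1h2ai coding: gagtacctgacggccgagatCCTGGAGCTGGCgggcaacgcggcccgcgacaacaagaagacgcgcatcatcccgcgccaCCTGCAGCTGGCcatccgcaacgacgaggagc
Hist1h2aa coding: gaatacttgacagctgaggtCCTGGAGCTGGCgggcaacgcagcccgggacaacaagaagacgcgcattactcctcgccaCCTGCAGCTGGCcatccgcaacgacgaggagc

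Without IAA, most histone genes carried CTCF or Rad21. Peaks were assigned to 62, 61 and 62 of the 70 histone genes in the parental CTCF lists (61.7 ± 0.577, SD, n = 3). The parental Rad21 lists gave 68, 64 and 45 (59.0 ± 12.3, SD, n = 3), so replicate 3 lay below the other 2, as its shorter list did for all genes. A CTCF peak in every parental library was found at 57 histone genes (81.4%, against 34.4% of all genes). A Rad21 peak in every parental library was found at 45 (64.3%, against 28.5% of all genes). Of the 70 genes, 44 carried both proteins in every parental library (62.9%, against 25.7% of all genes). CTCF only or Rad21 only is written below for genes that had the one protein in every library and the other in fewer or none. By this count 13 carried CTCF only, Hist1h2bh carried Rad21 only, and 12 carried neither in every library. Of all 37310 genes, 12837 had CTCF, 10642 Rad21 and 9587 both in every parental library. Rad21 only was thus rarer than CTCF only over all genes too, and most of all genes had neither. The untreated Rad21degron line gave 45 and 32 genes, with 28 in both libraries (40.0%, against 21.6% of all genes). Within 1 kb of the gene start alone, a window of one length for every gene, CTCF was in every parental library at 55 histone genes (78.6%, against 16.1% of all genes) and Rad21 at 41 (58.6%, against 16.1%). Leaving out Rad21 parental replicate 3 moved the class with both to 55, CTCF only to 2, Rad21 only to 9 and neither to 4.

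**Figure D1:**
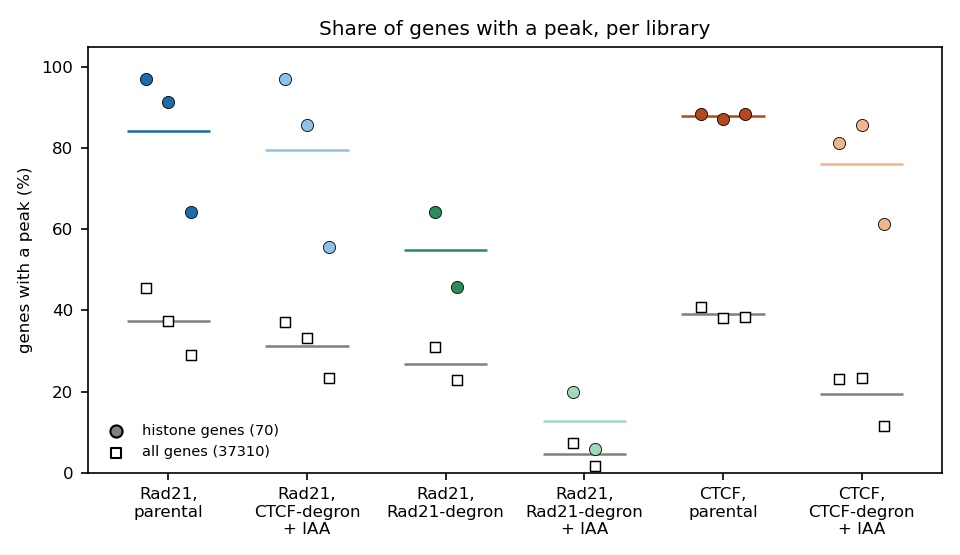
Share of genes with an assigned peak (%) in each of 16 libraries, by antibody and line; circles are the 70 histone genes, squares all 37310 genes, and lines the group means. In every library the histone share lies above the share of all genes, and after Rad21 degradation it is 20% and 5.71%.

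The clusters differed in class. All 10 Hist2 genes and Hist4h4 carried both proteins in every parental library. Of the 56 Hist1 genes, 31 carried both, 13 CTCF only, 1 Rad21 only and 11 neither in every library. Rad21 was at 54, 51 and 32 of the 56 in parental replicates 1, 2 and 3, and at all 10 Hist2 genes in each. For Rad21 the difference between these clusters thus lay mostly in replicate 3, the shortest parental list. In Hist3, Hist3h2a and Hist3h2bb-ps, a pair transcribed away from each other, carried both. Hist3h2ba, an H2B gene a few kilobases away, had a single parental peak (Rad21 replicate 1, fold enrichment 3.42). By product, both proteins were found at 3 of 6 H1, 13 of 20 H2A, 12 of 19 H2B, 9 of 12 H3 and 7 of 13 H4 genes. Because 56 of the 70 genes have a window that overlaps that of another histone gene, 1 peak was often counted for 2 or more of them, and genes are not independent counts.

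Most of these peaks were weak within their lists. The fold enrichment over background, the authors' own value for each peak, had a median of 4.22, 4.66 and 4.51 for histone-gene peaks in the parental Rad21 lists and 3.92, 3.80 and 4.09 in the CTCF lists. Their median percentile rank within the list was 46.3, 31.2 and 36.8 for Rad21 and 35.5, 28.9 and 25.1 for CTCF, where 50 is the middle of a list.

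A few genes stood high. Hist1h2be, an H2B gene annotated with a long intron, held the highest Rad21 peaks, with fold enrichments of 19.7, 19.3 and 9.20 in the parental lists and 8.62 and 6.39 in the untreated Rad21degron lists. Its CTCF peaks were at 9.74, 9.81 and 11.0. These peaks covered the intronic motif match shown above and lay 16582 bp from the nearest histone gene start. Hist2h2bb, an H2B gene with a long annotated transcript, had Rad21 at 15.2, 12.2 and 7.56 and CTCF at 11.6, 12.7 and 13.9. Hist1h4j, an H4 gene, had Rad21 at 11.6, 11.2 and 6.79 and CTCF at 10.4, 9.53 and 12.0. Hist1h1t, the testis H1, and its neighbour Hist1h4c shared peaks, with Rad21 at 8.61, 7.75 and 6.58 and CTCF at 8.76, 9.73 and 13.7. All of these exceeded the medians of their lists' histone peaks. Hist1h2bl had Rad21 at 8.85, 12.7 and 6.93 and CTCF at 8.40, 9.50 and 11.0. Its mean within-list percentile rank, 87.1, lay between those of Hist1h4j (89.7) and of Hist1h1t and Hist1h4c (85.7). Hist1h2bj had Rad21 at 5.79, 8.35 and 4.46 and CTCF at 7.47, 6.87 and 8.74.

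The other clusters and the other classes of Hist1 gene also held named genes. In Hist2, Hist2h4 had Rad21 at 7.14, 7.24 and 5.71 and CTCF at 8.48, 9.78 and 10.6. The H2A genes Hist2h2ab and Hist2h2ac, whose windows overlap, shared Rad21 at 7.29, 7.31 and 7.62 and CTCF at 5.55, 5.06 and 5.33. Hist2h2aa2 and the H3 pseudogene Hist2h3c2 shared Rad21 at 8.00, 7.29 and 5.37 and CTCF at 4.37, 4.49 and 4.68. The Hist3 pair shared Rad21 at 10.0, 8.95 and 7.26 and CTCF at 7.85, 7.15 and 7.95, and Hist4h4 had Rad21 at 4.93, 5.12 and 5.96 and CTCF at 4.59, 4.66 and 6.05. Of the genes with CTCF only, Hist1h2ag (CTCF 7.47, 3.90 and 8.74), Hist1h4a (6.27, 4.09 and 4.95), Hist1h2bm (4.62, 4.35 and 4.11), Hist1h3a (4.53, 3.95 and 4.01), Hist1h1e (4.08, 3.94 and 4.12) and Hist1h3i (4.25, 3.51 and 4.33) ranked highest. Each of these 6 had a Rad21 peak in at least 1 parental list, and none had one in replicate 3. Hist1h2bh, the gene with Rad21 only (3.69, 4.33 and 4.38), also had CTCF in 2 of 3 parental lists. Among genes with neither in every library, Hist1h2al, an H2A gene far from the rest of the cluster, had Rad21 at 5.75 and 4.48 in 2 lists and no CTCF peak, while Hist1h3g, Hist1h2af, Hist1h4i, Hist1h4m and Hist1h4d had peaks of each antibody in 1 or 2 parental lists.

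**Figure D2:**
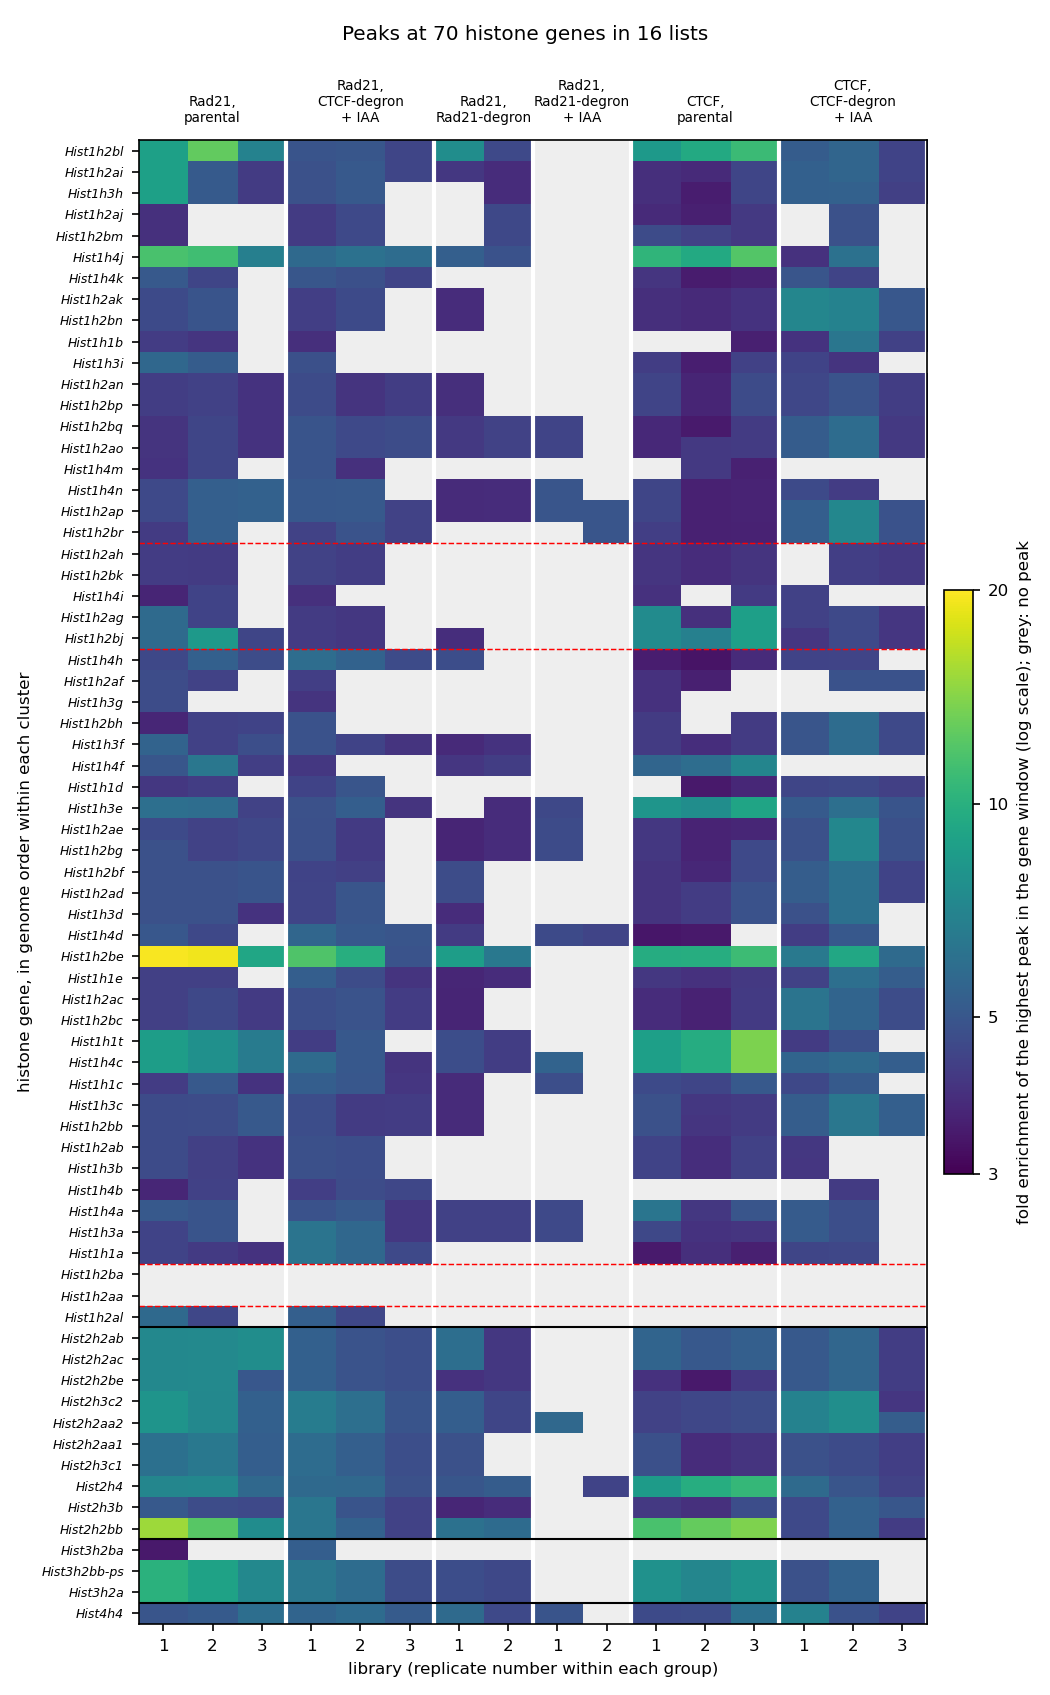
Fold enrichment (log colour scale) of the highest peak assigned to each of 70 histone genes (rows, genome order within Hist1, Hist2, Hist3 and Hist4; black lines part clusters, dashed red lines gaps over 100 kb) in each library (columns, replicate number). Grey cells have no peak; Hist1h2ba and Hist1h2aa are grey in all columns, and the 2 columns of Rad21 after Rad21 degradation hold peaks at 14 and 4 genes.

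After Rad21 degradation, Rad21 peaks were left at 14 and 4 histone genes (9.0 ± 7.07, SD, n = 2), against 45 and 32 without IAA. The ranges did not overlap, but 2 libraries against 2 cannot give an exact permutation p below 0.33. Over all genes the share with a Rad21 peak was 7.33% and 1.68%, against 30.95% and 22.78% without IAA. Those ranges did not overlap either, so the fall was also present over all genes. Lost means a peak in every control library and in no library with IAA, and kept means a peak in every library of both groups. Of the 28 genes with Rad21 in both untreated libraries, 16 lost it (57.1%, against 78.9% of all such genes) and 1 kept it (3.57%, against 3.52%). The 16 were Hist2h2ab, Hist2h2ac, Hist2h2be, Hist2h3c2, Hist2h3b, Hist2h2bb, Hist3h2a, Hist3h2bb-ps, Hist1h2bl, Hist1h2ai, Hist1h4j, Hist1h3f, Hist1h4f, Hist1h2be, Hist1h1e and Hist1h1t. They include Hist1h2be, which had the highest histone-gene Rad21 peak in each parental list, as well as Hist2h2bb and Hist1h4j. Counted as sites, where overlapping peaks of the 16 lists are merged, 10 of 18 were lost (55.6%, against 92.3% of all sites) and 0 kept (against 2.07%). Such sites were wider at histone genes, with a median of 2110 bp against 925 bp.

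The gene that kept Rad21 was Hist1h2ap, an H2A gene, with fold enrichments of 4.96 and 4.94 with IAA and 3.78 and 3.80 without. The peaks in its window were not at one place. In replicate 1 with IAA the peak was at chr13:21924029-21924200, over the start of the neighbouring Hist1h4n. In replicate 2 it was at chr13:21925401-21925572, over the duplicated promoter. The central 31 bases of both occur 2 times in mm9, so their placement is uncertain. Hist1h4d, an H4 gene, had Rad21 at 4.58 and 4.42 in both libraries with IAA, just upstream of the gene start and with a centre that occurs once, but in only 1 of 2 untreated libraries (4.16). A further 14 genes had a peak in 1 of the 2 libraries. Leaving out replicate 1 with IAA raised the lost count to 26, and leaving out untreated replicate 2 raised it to 31. Without replicate 2 with IAA, 11 genes counted as kept.

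After CTCF degradation, CTCF peaks were called at 57, 60 and 43 histone genes (53.3 ± 9.07, SD, n = 3), against 62, 61 and 62 in the parental line. The ranges did not overlap, and 3 libraries against 3 allow no exact permutation p below 0.1. Over all genes the share with a CTCF peak was 23.1%, 23.3% and 11.4%, against 40.8%, 38.3% and 38.4%. Of the 57 histone genes with CTCF in every parental library, 37 kept it in every library (64.9%, against 25.9% of all such genes), 19 kept it in 1 or 2, and 1 lost it (1.75%, against 36.2%). The lost gene was Hist1h4f, an H4 gene with parental CTCF at 5.56, 5.92 and 7.09 and Rad21 at 4.99, 6.34 and 4.27. In the CTCFdegron line it had no CTCF peak and a single Rad21 peak of 4.08.

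The share kept differed between clusters and products. CTCF was kept at 26 of 44 Hist1 genes, 10 of 10 Hist2 genes and Hist4h4, and at neither of the 2 Hist3 genes, which had it in 2 of 3 libraries. By product it was kept at 13 of 17 H2A, 13 of 16 H2B, 7 of 11 H3, 3 of 9 H4 and 1 of 4 H1 genes. In CTCFdegron replicates 1, 2 and 3, CTCF was at 10, 10 and 3 of all 13 H4 genes. It was at 6, 6 and 3 of 6 H1 genes and at 11, 10 and 7 of 12 H3 genes. The counts were 15, 17 and 15 for the 20 H2A genes, and the same for the 19 H2B genes. The low kept counts of H4, H1 and Hist3 genes thus came with replicate 3, the shortest list. The kept H4 genes were Hist1h4c, Hist2h4 and Hist4h4, and the kept H1 gene was Hist1h1e. Hist1h1b, Hist1h1d and Hist1h2bh had CTCF in every CTCFdegron library without having it in every parental one, which makes 40 genes with CTCF in every CTCFdegron library.

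These are, in Hist1, Hist1h2bl, Hist1h2ai, Hist1h3h, Hist1h2ak, Hist1h2bn, Hist1h1b, Hist1h2an, Hist1h2bp, Hist1h2bq, Hist1h2ao, Hist1h2ap, Hist1h2br, Hist1h2ag, Hist1h2bj, Hist1h2bh, Hist1h3f, Hist1h1d, Hist1h3e, Hist1h2ae, Hist1h2bg, Hist1h2bf, Hist1h2ad, Hist1h2be, Hist1h1e, Hist1h2ac, Hist1h2bc, Hist1h4c, Hist1h3c and Hist1h2bb, besides Hist4h4 and all of Hist2. The neighbours Hist1h2ak and Hist1h2bn shared peaks of 3.87, 3.76 and 3.96 in the parental lists and of 7.17, 6.94 and 5.02 in the CTCFdegron lists. Hist1h2ac and Hist1h2bc shared 3.82, 3.60 and 4.13, then 6.23, 5.51 and 4.66. Hist1h2be had 6.48, 9.38 and 5.78 with IAA. Fold enrichments are set within each list, whose length fell between the groups, so their difference between groups is not read as a change.

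The kept share stood above that of all genes in most ways of counting, with exceptions. Within 1 kb of the start, 35 of 55 histone genes kept CTCF (63.6%, against 28.5% of all such genes) and 1 lost it (1.82%, against 31.7%). Among genes whose highest peak had a mean percentile rank under 50 in the parental CTCF lists, 26 of 40 kept it (65.0%, against 22.5%) and 0 lost it (against 37.5%). As merged sites, 21 of 36 were kept (58.3%, against 13.6% of all sites) and 4 lost (11.1%, against 69.7%). Restricted to sites within 1 kb of any gene start, 20 of 32 were kept (62.5%, against 26.9%) and 2 lost (6.25%, against 36.2%). Merged sites at histone genes were wider than others, with a median of 2015 bp against 756 bp, and a wide site has more room for a peak. With peaks at a q-value of 0.001 or less, 4 of 18 histone genes kept CTCF (22.2%, against 12.1% of all genes) and 2 lost it (11.1%, against 57.2%). Counting only peaks that cover the start base itself, CTCF was in every parental library at 13 histone genes (18.6%, against 5.31% of all genes). Of these 3 kept it (23.1%, against 22.4%) and 1 lost it (7.69%, against 38.9%), and the kept share was then near that of all genes.

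The CTCF peaks left in the CTCFdegron line sat closer to histone gene starts. In the parental lists 23 of 85, 19 of 66 and 15 of 68 histone-gene CTCF peaks had their centre within 100 bp of a histone gene start (27.1%, 28.8% and 22.1%). In the CTCFdegron lists these were 26 of 52, 29 of 54 and 19 of 29 (50.0%, 53.7% and 65.5%). The number of peaks 100 bp or farther away was 62, 47 and 53 in the parental lists and 26, 25 and 10 in the CTCFdegron lists, and the groups did not overlap. The whole CTCF lists also shortened without overlap, from 52357, 47558 and 46657 peaks to 15510, 15754 and 8215. In each list most peaks lay 100 bp or farther from any gene start, so this fall was present over all peaks. Over all CTCF peaks, the share within 100 bp of any gene start was 5.07%, 3.59% and 4.07%, then 17.7%, 16.6% and 13.6%. The shift was thus also present over all genes. For Rad21 at histone genes the share was 12.3%, 28.1% and 17.0% in the parental line and 25%, 32.8% and 37.1% in the CTCFdegron line. The groups overlapped, while by replicate number the share was higher in the CTCFdegron list in 3 of 3, as it was over all Rad21 peaks and any gene start (4.47%, 6.25% and 5.48%, then 9.87%, 14.8% and 16.4%). For Rad21, lists with one number share their spike-in status, since replicate 1 of both lines had none and replicates 2 and 3 had it.

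**Figure D3:**
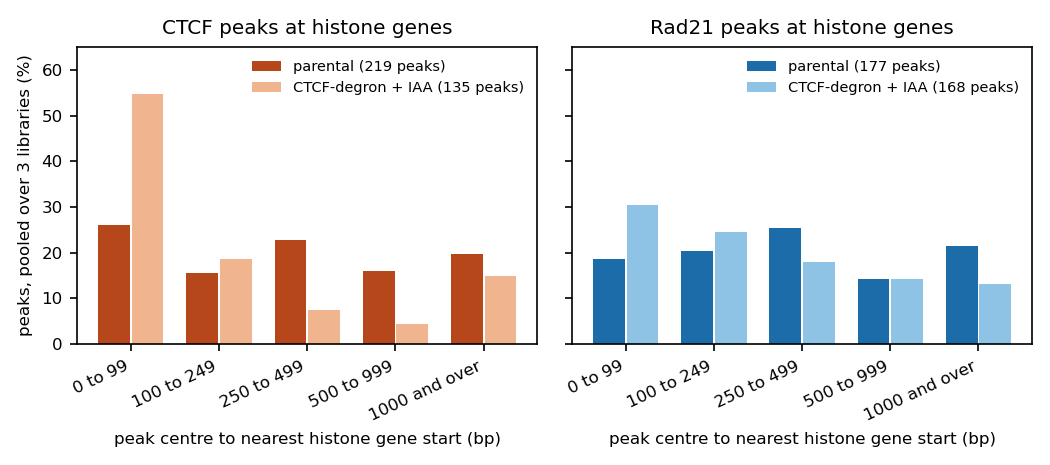
Share (%) of CTCF peaks (left) and Rad21 peaks (right) assigned to histone genes, pooled over 3 libraries, by the distance of the peak centre from the nearest histone gene start in bp; dark bars are the parental line and light bars the CTCFdegron line with IAA. For CTCF the nearest bin holds 26% of 219 parental peaks and 54.8% of 135 peaks of the CTCFdegron line.

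At the shared promoters of H2A and H2B genes transcribed away from each other, CTCF peaks were called in both lines. They overlapped 12, 9 and 7 of the 13 shared promoters in the parental lists and 11, 12 and 11 in the CTCFdegron lists, and the groups overlapped: the count was lower in the CTCFdegron list for replicate 1 and higher for replicates 2 and 3. A CTCF peak overlapped 6 in every parental library (46.2%, against 22% of 245 gene pairs that face away from each other at the same range of distances) and 10 in every CTCFdegron library (76.9%, against 31%). The 4 promoters whose sequence is printed, Hist1h2ap/Hist1h2br and its copy, Hist1h2ae/Hist1h2bg and Hist2h2ac/Hist2h2be, were among the 10. The promoter of Hist1h2ba and Hist1h2aa had no peak in any list. Rad21 overlapped 12, 7 and 2 of the 13 in the parental lists and 11, 8 and 3 in the CTCFdegron lists, which overlap. In the 300 bp promoters of the 70 genes (250 bp before to 50 bp after the start), CCAAT occurred in 84.3% against 38.4% of all genes, TATAAA in 54.3% against 16.2% and ATTTGCAT in 22.9% against 2.27%. The octamer was found only before H2A (35%) and H2B genes (47.4%). The CTCF core occurred in 2.86% of histone promoters, against 7.87% of all.

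At the CTCF core matches outside exons, a CTCF peak was seldom left in every library, as was so of CTCF sites over the genome. A parental CTCF peak in every library covered 7 such matches. In the CTCFdegron line, CTCF covered 1 of the 7 in every library, the one in the Hist1h2be intron, and 1 in none, a match 1001 bp from Hist4h4. Over all merged CTCF sites, which are wider than a match, 13.6% were kept in every library and 69.7% lost. The match of Hist1h4j was covered in 2 of 3 libraries, those of Hist1h1t/Hist1h4c, Hist1h2bl and Hist2h4 in 1 each, and one of the near-repeated stretch by Hist2h3c2 in 2. At 5 of the 6 matches not covered in every CTCFdegron library, all but that of Hist1h4j, a gene beside the match had CTCF in more of these libraries than the match did, through other peaks of its window. At Hist2h2bb the site of the 11.6, 12.7 and 13.9 CTCF peaks had a CTCF peak in 1 of 3 libraries (4.28), while the gene kept CTCF through a peak elsewhere in its window. Across lists, the core lay in the central 300 bp of 20%, 22.7% and 30.9% of parental CTCF peaks at histone genes, against 36.7%, 41.1% and 43.3% of all. In the CTCFdegron lists it lay in 15.4%, 16.7% and 13.8%, against 18.5%, 25.9% and 23.7%. These sites were picked after their values were seen.

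**Figure D4:**
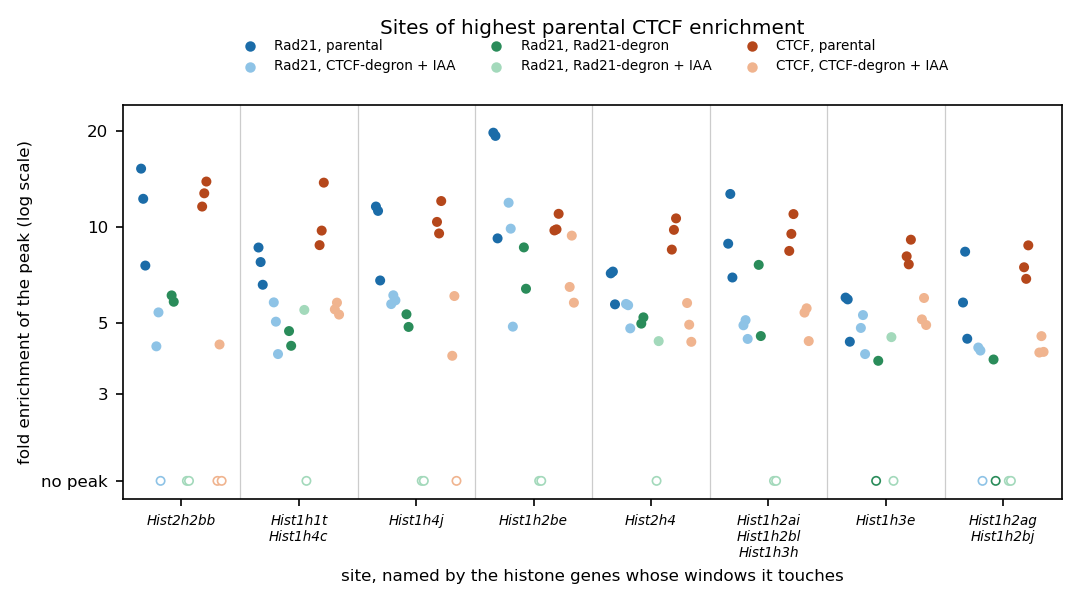
Fold enrichment (log axis) of the peak at the 8 merged sites with Rad21 and CTCF in every parental library and the highest mean parental CTCF fold enrichment, named by the histone genes they touch; each point is 1 library, coloured by group, and open points at the bottom mark no peak. At Hist2h2bb, 1 of 3 CTCFdegron libraries has a CTCF peak (4.28), and at Hist1h2be all 3 do.

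After CTCF degradation, Rad21 peaks were called at 68, 60 and 39 histone genes (55.7 ± 15.0, SD, n = 3), against 68, 64 and 45 in the parental line, and the groups overlapped. By replicate number the count was equal in 1 and lower in 2 of 3, and the share of all genes was lower in 3 of 3. Of the 45 genes with Rad21 in every parental library, 32 kept it in every library (71.1%, against 63.3% of all such genes), 13 in 1 or 2, and 0 lost it (against 11.4%). The kept share was near that of all genes. Within 1 kb of the start, 29 of 41 histone genes kept Rad21 (70.73%, against 70.01% of all such genes). As merged sites, 20 of 28 were kept (71.4%, against 35.7% of all sites) and 0 lost (against 41.4%). These sites were wider at histone genes, with a median of 2045.5 bp against 906 bp. The 32 genes that kept Rad21 comprised all 10 of Hist2, both Hist3 carriers, Hist4h4 and 19 of 32 in Hist1. Hist1h2be had Rad21 at 11.9, 9.86 and 4.87 in the CTCFdegron lists, and Hist1h4j at 5.73, 6.10 and 5.88. The peak at the strongest Hist2h2bb site was present in 2 of 3 (4.22 and 5.39). With the 2 spike-in libraries of each group alone, 2 genes lost Rad21. Leaving out CTCFdegron replicate 3, the shortest list, raised the kept count to 43.

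In the CTCFdegron line, 28 genes had both proteins in every library (40.0%, against 8.37% of all genes). A further 12 had CTCF in every library and Rad21 in 1 or 2 of 3 (17.1%, against 1.81% of all genes with CTCF but not Rad21 in every library). Another 11 had Rad21 in every library and CTCF in 1 or 2 of 3 (15.7%, against 14.6% of all genes with Rad21 but not CTCF in every library), a share near that of all genes. The 12 were Hist1h3h, Hist1h2ak, Hist1h2bn, Hist1h1b, Hist1h2ag, Hist1h2bj, Hist1h2bh, Hist1h1d, Hist1h2ae, Hist1h2bg, Hist1h2bf and Hist1h2ad. The 11 were Hist3h2bb-ps, Hist3h2a, Hist1h4j, Hist1h4k, Hist1h4h, Hist1h4d, Hist1h1c, Hist1h4b, Hist1h4a, Hist1h3a and Hist1h1a, of which 6 encode H4. Of the 12, 9 encode H2A or H2B. Among all 70 genes, 39 encode H2A or H2B and 13 encode H4, and the difference in product between the sets was not tested.

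Peaks in the Hist1 region were concentrated at the histone genes themselves. Between the first and last window of the cluster, Hist1h2al left out (chr13:21806632-24027720), histone windows took 7.30% of the length. They held 58 of 132, 47 of 82 and 25 of 50 parental Rad21 peaks and 67 of 111, 50 of 93 and 49 of 85 parental CTCF peaks. In the CTCFdegron line they held 39 of 60, 43 of 64 and 21 of 31 CTCF peaks. Of 117 other genes in the span away from histone windows, 9 carried CTCF in every parental library, of which 3 kept and 4 lost it after CTCF degradation.

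Near-identical copies limit where these peaks can be placed. The block of Hist1h2bq, Hist1h2ao and Hist1h4m is repeated in inverted order as Hist1h4n, Hist1h2ap and Hist1h2br. In the windows of Hist1h2ao and Hist1h2ap, 98.8% and 99.1% of 31-base stretches occur more than once in mm9, and in those of Hist1h2bq and Hist1h2br all do. The H2A copies Hist2h2aa1 and Hist2h2aa2 shared 66.8% of theirs, while the H1 gene windows of Hist1h1t and Hist1h1a had 0.764% and 1.10% repeated. The 13 H4 genes encode 1 protein, 11 H3 genes encode 3, 19 H2A genes 10, 18 H2B genes 12 and 6 H1 genes 6. The central 31 bases were repeated in 33.8% of parental and 18.5% of CTCFdegron CTCF peaks at histone genes. Among all CTCF peaks this share was 12.5%, 14.5% and 13.7% in the parental lists and 17.7%, 17.4% and 30.0% in the CTCFdegron lists. The CTCFdegron share at histone genes thus lay within the range of all peaks. For Rad21 at histone genes the share was 39.6% in the parental line (against 6.02% to 10.3% of all peaks by list). In the CTCFdegron line it was 38.7% (against 6.53% to 9.36%). With single-copy centres alone, CTCF was kept at 20 of 35 histone genes (57.1%, against 24.6% of all such genes) and lost at 1. The classes then became 10 with both proteins, 4 with Rad21 only, 25 with CTCF only and 31 with neither.

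Genes that regulate histone transcription or histone mRNA were counted in the same way. Of 20 such genes, 9 had both in every parental library (against 25.7% of all genes), 2 Rad21 only, 4 CTCF only and 5 neither. Of 8 with Rad21 in both untreated Rad21degron libraries, 4 lost it after Rad21 degradation (against 78.9% of all such genes): Slbp, which encodes the stem-loop binding protein (12.0, 8.83 and 6.11 in the parental lists), Lsm11, a component of the U7 particle that processes histone messages (16.5, 12.7 and 7.06), Eri1, an exonuclease that trims the stem-loop (20.6, 18 and 8.79), and Pou2f1, the octamer-binding factor Oct-1 (19.6, 15.8 and 9.36). Of 13 with CTCF in every parental library, 4 kept it after CTCF degradation (against 25.9% of all such genes) and 2 lost it (against 36.2%). The 2 were Ccne2, a cyclin E gene (3.59, 3.78 and 4.31), and Cdk2, its kinase partner (3.93, 4.28 and 3.74). All 11 with Rad21 in every parental library kept it after CTCF degradation (against 63.3% of all such genes). Npat, the coactivator of histone genes, had neither protein in every parental library. Of 11 replication-independent histone genes, 7 had both (against 25.7% of all genes) and 4 neither. H2afz, H2afx and H2afv, 3 of 4 carriers, lost Rad21 after Rad21 degradation, a share near that of all such genes (78.9%). CTCF was kept at 6 of 7 (against 25.9%) and Rad21 after CTCF degradation at 6 of 7 (against 63.3%). These lists are short, and their shares were not tested against all genes. The stem-loop sequence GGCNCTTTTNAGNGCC, searched on the gene's strand within 100 bp of the annotated end, was found at 40 of the 70 histone genes (57.1%), against 0.113% of all genes.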

How the data were processed

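Immunoprecipitated Rad21 and CTCF from v-Abl pro-B lines gave 16 deposited peak lists, 1 per library, and 8 input samples were not used. The genome used for alignment was, per the labels, mm9 joined with a further sequence. The submitters' processing notes name Bowtie2 2.2.8 and SAMtools 1.8, and the peak caller is not given in the sources used here. Each deposited peak has a score, which was not used, a fold enrichment (a ratio over background), and −log10 of its p-value and of its q-value. Replicates were called separately. Contigs named for hg19, found in 8 lists with a human spike-in, were left out.

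Peaks were assigned to GENCODE vM1 genes as described, with Python 3.11.15, pandas 2.3.3 and numpy 2.4.6, and sequences were read with samtools 1.23.1 and pysam 0.24.0. Occurrences of 31-base stretches were counted on both strands of mm9. Motif shares of peaks leave out chromosome 12, where list coordinates run past the reference. Assignment and copy counts were tested on simulated data. No test was made over genes: counts are set beside the same share of all genes, and peak lists carry no depth. The members and lists were chosen with earlier results of these data known. Named genes were, per cluster and class, up to 6 by mean within-list rank of fold enrichment, every gene with a peak in all libraries of an IAA group, and every regulator or replication-independent histone gene that lost or gained peaks.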

Additional observations from a re-analysis of the deposited data

How the results depend on the processing

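Of 170 recalculations, 97 stayed within 1.5 times the reported count. Counts are given in the order both, Rad21 only, CTCF only, neither, where these moved. Gene bodies without flanks gave 22 with both, 6 with Rad21 only and 28 with neither. Peaks at a q-value of 0.001 or less gave 14, 6, 4 and 46, a fold enrichment of 4 or more gave 19, 16, 3 and 32, and lists shortened to the shortest gave 17, 8, 2 and 43. Single-copy centres gave 10, 4, 25 and 31. Rad21 only became 0 with 2 kb flanks or with peak centres in the window. Requiring at least 1 control library gave 3 with Rad21 only, 0 with CTCF only and 2 with neither. Leaving out 1 library gave 44 to 55 with both, 0 to 9 with Rad21 only, 2 to 15 with CTCF only and 4 to 12 with neither.

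For Rad21 after Rad21 degradation, lost genes became 9 without flanks, 4 at the stricter q-value, 0 with shortened lists, where no histone gene was left to lose, 34 with at least 1 control library and 10 as sites. The lost share was 75.0% of 12 histone genes without flanks (against 82.9% of all) and 100% of 4 at the stricter q-value (against 92.2%). Near starts it was 59.1% of 22 (against 72.7%). It was 57.9% of 19 at the stricter fold (against 79.7%) and 68.75% of 16 with single-copy centres (against 80.25%). Kept genes became 0 without flanks, near starts, at the stricter q-value or fold, with shortened lists, with single-copy centres and as sites, 3 with 2 kb flanks and 2 with at least 1 control library. Leaving out 1 library gave 17 to 31 lost and 1 to 11 kept.

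For CTCF after CTCF degradation, lost genes became 3 without flanks, 2 at the stricter q-value, 0 with shortened lists, 3 with at least 1 control library, 4 as sites, 2 as sites near starts and 0 among genes of rank under 50. Kept genes became 12 without flanks, 4 at the stricter q-value, 14 at the stricter fold, 5 of 7 with shortened lists, 20 with single-copy centres, 21 as sites, 20 as sites near starts and 3 over the start base. Without flanks the kept share was 33.3% of 36 histone genes, against 20.1% of all. Leaving out 1 library gave 1 to 3 lost and 37 to 50 kept, with the highest without CTCFdegron replicate 3.

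For Rad21 after CTCF degradation, lost genes became 1 at the stricter q-value and 2 with spike-in libraries only. Kept genes became 19 of 28 without flanks, 4 of 20 at the stricter q-value and 13 of 14 with shortened lists. They became 8 of 14 with single-copy centres and 20 of 28 as sites. Of these settings, the kept share lay below that of all with single-copy centres (57.14%, against 62.35%) and at the stricter q-value (against 22.66%). It lay above with shortened lists (92.86%, against 58.78%), without flanks (67.86%, against 59.25%) and as sites (71.4%, against 35.7%). Leaving out 1 library gave 0 to 2 lost and 32 to 43 kept. The cause of these shifts was not tested beyond the smaller number of peaks or genes each setting leaves. Counts as sites, over the start base and by rank were chosen after seeing the data. No paired analysis was possible because no count here comes from a fitted test. Read by replicate number, histone genes with a peak were fewer with IAA in 2 of 2 pairs for Rad21 after Rad21 degradation, in 3 of 3 for CTCF and in 2 of 3 for Rad21 after CTCF degradation, with 1 equal. The share of all genes with a peak was lower with IAA in 2 of 2, 3 of 3 and 3 of 3. Depth is unknown, so a missing peak may lie under a library's calling threshold.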
